A study of Mus musculus and Ochotona curzoniae and Rattus norvegicus with 18 samples.

Results

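PPIA, TBP, HPRT1, YWHAZ, EEF1A1 and POLR2A are genes often used as internal references when RNA levels are compared between samples. They were chosen by name, as 6 of the 14419 genes whose symbol was found once in both the pika and the mouse table, and HPRT1 was taken as the mouse gene Hprt. All 6 were found and all 6 were among the 10349 genes tested. The series was designed to measure clock gene RNA across species and binding of Epas1, a transcription factor of the hypoxia response. Total RNA came from cultured fibroblasts of the Tibetan pika (Ochotona curzoniae), the C57BL/6J mouse, the SD rat and the White New Zealand rabbit, with 3 libraries per species and no treatment or genotype given in the labels. Tissue is given as epidermis and cells were grown in DMEM with 10% FBS at 37 °C and lysed at 90% confluency. Pika and mouse libraries are compared here. The rows of the rat and rabbit tables carry identifiers that no table used here pairs with gene symbols, so these 2 species and the 6 ChIP-seq samples were not analysed here. The labels give no age, sex or number of animals, and they do not say whether the 3 libraries of each species derive from different animals or cultures. The p-values therefore cover only the variation among these libraries, which could be technical.

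A reference gene is used on the assumption that its RNA level is the same in all samples compared, so that differences in input RNA can be divided out. The 6 genes serve basic functions that are mostly unrelated, though TBP and POLR2A both act in transcription. PPIA encodes cyclophilin A, an enzyme that helps proteins fold by turning proline bonds, and EEF1A1 encodes the elongation factor that carries aminoacyl-tRNA to the ribosome. YWHAZ encodes 14-3-3 zeta, an adaptor that binds phosphorylated proteins, and HPRT1 encodes the enzyme that recycles hypoxanthine and guanine into nucleotides. TBP is the TATA-binding protein of the general transcription machinery, and POLR2A is the largest subunit of RNA polymerase II.

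The mouse genes lie in GRCm38 on chromosome 11 from 6415867 to 6419817 (Ppia), chromosome 17 from 15499888 to 15517427 (Tbp), chromosome X from 52988078 to 53021660 (Hprt), chromosome 15 from 36770261 to 36802984 (Ywhaz), chromosome 9 from 78478453 to 78481724 (Eef1a1) and chromosome 11 from 69733997 to 69758633 (Polr2a). The RefSeq promoter table of GRCm38.p6 held 5 of the 6 genes, and Ywhaz was not among them. The 60 bases before the annotated start are shown because TBP, itself a member, binds the TATA box, and because the mouse levels of these genes differ widely. Capitals mark the letters TATAAA, a form of that box.
Ppia, chr11:6415807-6415866, + strand: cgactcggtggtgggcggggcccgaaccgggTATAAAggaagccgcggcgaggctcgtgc
Polr2a, chr11:69758634-69758693, - strand: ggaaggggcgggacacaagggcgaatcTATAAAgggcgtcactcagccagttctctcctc
Eef1a1, chr9:78481725-78481784, - strand: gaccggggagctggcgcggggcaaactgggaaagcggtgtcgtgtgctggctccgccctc
Hprt, chrX:52988018-52988077, + strand: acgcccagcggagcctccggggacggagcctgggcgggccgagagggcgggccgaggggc
Tbp, chr17:15499828-15499887, + strand: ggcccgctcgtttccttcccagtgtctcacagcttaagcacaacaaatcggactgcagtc
TATAAA or TATATA, which can overlap each other, was found on the gene strand in Ppia, beginning 29 bases before the start, and in Polr2a, beginning 33 bases before it. Of all 32851 windows of this length, 4.06% held either form on the gene strand and 5.01% on either strand. In Eef1a1 TATATA began 23 bases after the annotated start and so lay outside the window. It was found in a wider search of 300 bases around the start, where 12.5% of all promoters held either form on the gene strand. GGGCGG, the core letters of a GC box, was counted on both strands over 250 bases before the start, with 4 matches in Ppia, 3 in Polr2a, 2 each in Hprt and Eef1a1 and 1 in Tbp, where 32.7% of all promoters held at least 1. These matches describe the letters only.

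The pika libraries held 7703576 to 8481030 reads and the mouse libraries 3663102 to 5758950, as worked out from the steps of the deposited FPKM, the fragments of a gene per kilobase of its length and by library total. The shared genes made up 87.1% to 87.2% of the FPKM in pika and 37.0% to 38.3% in mouse, where a single row, Gm23935, took 23.9% to 25.1%. Each library was therefore rescaled so that the shared genes summed to 1000000, and values are given as rescaled FPKM unless stated otherwise. The fibroblast label was checked on 12 shared markers, whose rescaled FPKM summed to between 13349 and 13796 in pika and 16242 and 16716 in mouse, with none at 0. COL1A1 and VIM made up most of these sums, and the markers did not move together: 2 were called higher in pika, 5 lower and 5 not called. By the same rule for calls, given below, 28.7% of all tested genes were higher and 23.5% lower. The mean level of COL3A1 was 22.9 in pika against 954.5 in mouse, that of PDGFRA 3.47 against 65.1 and that of FAP 41.7 against 1.23. Of 8 keratinocyte markers, which the label epidermis could bring in, KRT5, KRT14, KRT10, KRT15, CDH1 and EPCAM were listed at 0 in pika. In mouse KRT10 had 14 reads in all and the other 5 had 1 read each. The sums of the 8, 62.2 to 76.5 in pika and 49.2 to 57.6 in mouse, rested on PERP in pika (70.4, against 2.66 in mouse) and on DSP in mouse (45.2, against 0.153 in pika). Melanocyte markers summed to 68.1 to 78.5 in pika and 54.8 to 58.3 in mouse, endothelial markers to 0.707 to 1.60 and 32.3 to 39.3, and leukocyte markers to 2.94 to 4.73 and 25.5 to 38.2. The melanocyte sums rested on MITF (40.2 in pika, 50.4 in mouse) and, in pika, PMEL (31.6). In mouse the endothelial sum rested on TEK (31.4), with PECAM1 at 0.933. The mouse leukocyte sum rested on CD68 (15.8, on 17 reads) and CSF1R (12.2), with PTPRC at 0.127. TYRP1, CDH5, KDR, PTPRC, ADGRE1 and ITGAM were listed at 0 in pika, and TYR and SOX10 in mouse. Genes of cell proliferation moved with species. Of 18 tested, 17 were called higher in pika, beside 28.7% of all tested genes. The sum of the 18 was 4550 to 4656 in pika and 911 to 931 in mouse. The part of growth state or of other cells in the results below was not tested, and less RNA per cell cannot be told apart from fewer cells of a type in such samples.

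The levels of the 6 genes differed between the species in both directions. PPIA and TBP were higher in pika, by 8.81-fold and 6.71-fold, and HPRT1 was higher in mouse, by 8.39-fold. YWHAZ was 2.08-fold higher in pika, at the edge of the fold minimum. EEF1A1 and POLR2A differed least, with pika at 0.821 and 0.718 of the mouse level. No gene of the 6 had overlapping groups, which held for 89% of all tested genes. By limma-trend with calls made at a Benjamini-Hochberg adjusted p below 0.05 and a log2 difference of at least 1 either way, 3 were called higher in pika, 1 lower and 2 were not called. Of all tested genes 52.2% were called, 28.7% higher and 23.5% lower, so 4 calls among 6 genes do not set these genes apart. The median log2 fold change of the 6 was 0.39 and that of all tested genes 0.21.

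**Figure D1:**
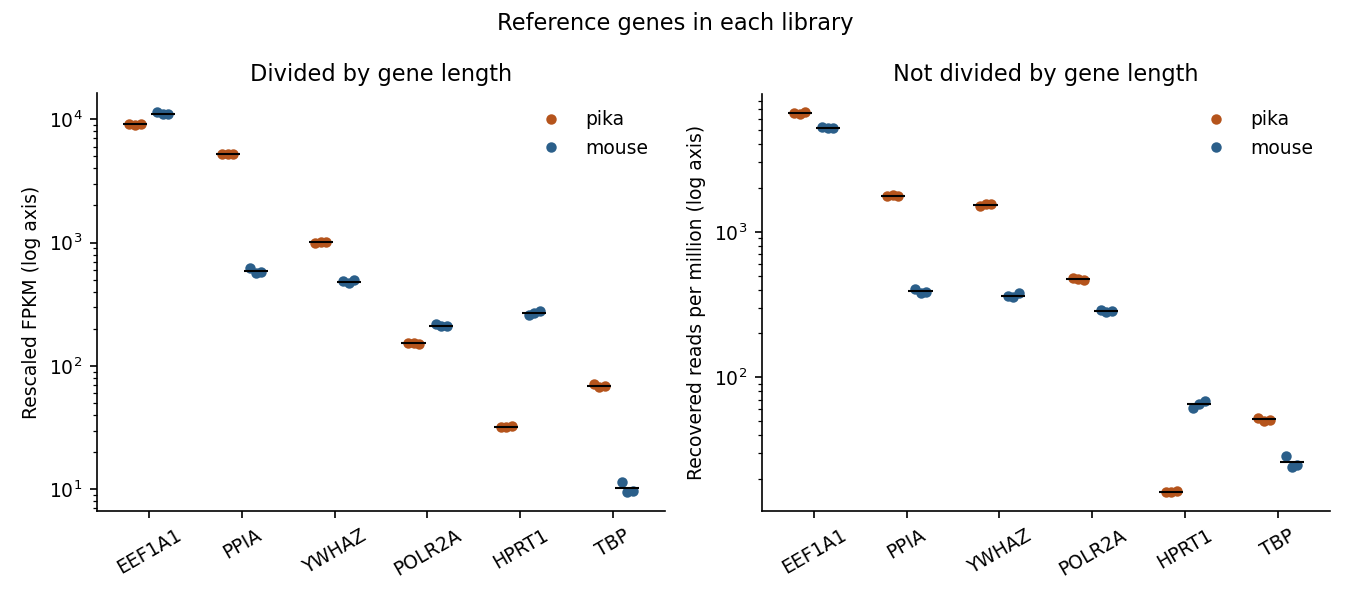
Level of the 6 reference genes in each of 3 pika and 3 mouse libraries, as rescaled FPKM (left) and as recovered reads per 1000000 without division by gene length (right), both on log axes; points are libraries and bars are means. The panels differ in scale as well as in gene length, with the shared-gene sum on the left and the library total on the right. PPIA, YWHAZ and TBP lie higher in pika and HPRT1 lies higher in mouse in both panels, while EEF1A1 and POLR2A change sides between the panels.

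EEF1A1 was the most abundant of the 6 in both species and ranked 1 in pika and 2 in mouse by level among the tested genes. Its rescaled FPKM was 9121, 8987 and 9200 in the pika libraries and 11343, 10976 and 10928 in the mouse libraries. All 3 mouse libraries lay above all 3 pika libraries, but the gap was small beside that of the other genes. The log2 fold change, pika over mouse, was -0.28 (SE 0.02, limma-trend adjusted p = 8.5e-07), with a 95% interval from -0.33 to -0.24. The difference was thus larger than the spread between libraries and smaller than the fold minimum. The deposited FPKM gave the opposite order, with pika libraries at 4211, 4169 and 4254 and mouse libraries at 2114, 2070 and 2082.

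PPIA came next in pika. It stood at 5188, 5200 and 5199 in pika, against 618.1, 572.3 and 579.5 in mouse. It ranked 2 among the tested genes in pika and 253 in mouse. The log2 fold change was 3.14 (SE 0.03, limma-trend adjusted p = 3.5e-12), with an interval from 3.07 to 3.21. Of the tested genes 89.7% had a smaller absolute fold change. Recovered reads per 1000000 reads of the library total, which are not divided by gene length and are meant below by without gene length, put PPIA 4.54-fold higher in pika. They were 1765, 1778 and 1772 for the pika libraries and 404.1, 378.6 and 387.4 for the mouse libraries. The gene models had 737 bases in pika and 3508 in mouse.

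Cyclophilin A genes have many processed copies in mammalian genomes, and reads can be shared with them. RefSeq synonyms name 60 mouse pseudogenes as copies of Ppia, of which 43 were rows of the mouse table and 14 were above 0. These rows held 160, 125 and 122 reads, or 6.88%, 9.01% and 6.64% of the reads of Ppia, but, being short, 52.1%, 67.6% and 50.9% of its FPKM. With these rows added to mouse Ppia, an alternative chosen after the data were seen, the pika level was 5.62-fold higher in rescaled FPKM and 4.23-fold higher in reads per 1000000. The sources used here do not say how reads that match several copies were counted. The same synonyms name 2 Eef1a1 pseudogenes, and neither was a row of the mouse table.

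YWHAZ stood at 992.2, 1014 and 1015 in pika, against 486.1, 468.7 and 494.8 in mouse. The groups were well apart, and the log2 fold change of 1.06 (SE 0.03, limma-trend adjusted p = 1.1e-09) lay close to the fold minimum, with an interval from 0.99 to 1.13. With median-of-ratios scaling it was 0.88 and with the geometric mean of the 6 genes as the scale 0.54, and the call was lost. The models were of similar length, with 3293 and 3999 bases. Without gene length the log2 fold change was 2.07, and 53.9% of the genes with recovered reads were called on that scale. That setting also divides by the library total and not by the shared-gene sum. Deposited FPKM without rescaling gave 2.34, and recovered reads over their sum in shared genes, an alternative added after the data were seen, gave 1.82.

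POLR2A stood at 154.3, 152.8 and 151.3 in pika, against 218.4, 209.1 and 211.1 in mouse. Mouse was higher in every library, with a log2 fold change of -0.48 (SE 0.04, limma-trend adjusted p = 1.3e-06) and an interval from -0.56 to -0.39. Its models had nearly the same length, at 6710 and 7067 bases. On the deposited FPKM it was higher in pika, at 71.3, 70.9 and 70.0 against 40.7, 39.4 and 40.2. The sign of both POLR2A and EEF1A1 thus depended on the scale. It depended on gene length as well: with recovered reads over their sum in shared genes, an alternative added after the data were seen, EEF1A1 was at 0.077 and POLR2A at 0.49, and 52.9% of genes were called.

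HPRT1 was the only member called lower in pika on the shared-gene scale. It stood at 31.8, 31.8 and 32.4 in pika, against 256.6, 269.5 and 279.9 in mouse. The log2 fold change was -3.03 (SE 0.05, limma-trend adjusted p = 5.5e-11), with an interval from -3.14 to -2.92. The models had 1101 bases in pika and 1289 in mouse. Its pika level rested on 132, 125 and 140 reads, against 355, 240 and 326 in the mouse libraries, which had lower totals. HPRT1 was called lower in pika without rescaling (-1.71), without gene length (-1.94) and with median-of-ratios scaling (-3.20) as well.

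TBP was the least abundant of the 6 in mouse, where 20.2% of tested genes were lower. It stood at 70.8, 67.0 and 68.5 in pika, against 11.5, 9.51 and 9.75 in mouse. The log2 fold change was 2.64 (SE 0.09, limma-trend adjusted p = 5.0e-09), with an interval from 2.43 to 2.85. The mouse gene model had 13399 bases and the pika model 1608, a ratio of 8.33, where the median ratio over shared genes was 2.19. Without division by length TBP stood at 52.6, 49.98 and 50.9 reads per 1000000 in pika and 28.7, 24.0 and 24.9 in mouse. That is a 1.98-fold difference, and its log2 fold change of 0.96 lay just under the fold minimum. HPRT1 and TBP exchanged their order between the species both per gene length and without it. Without gene length TBP had a mean of 51.2 and HPRT1 of 16.3 reads per 1000000 in pika. In mouse the means were 25.9 and 65.3.

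**Figure D2:**
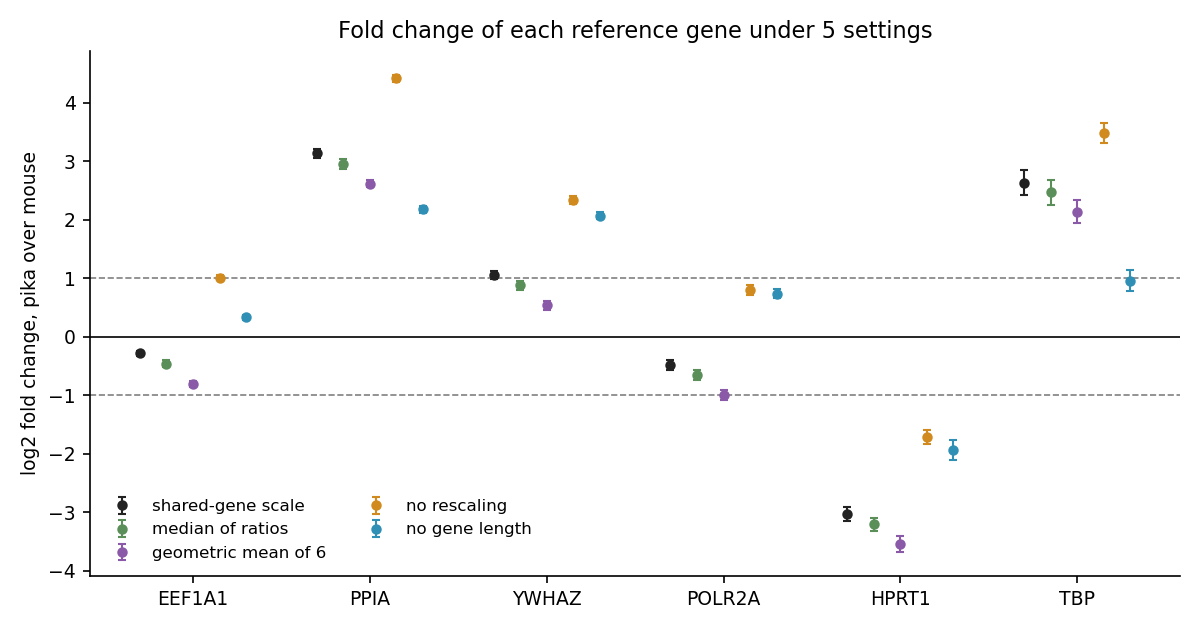
Log2 fold change, pika over mouse, of each reference gene under 5 settings, with 95% intervals from the fit over 6 libraries; dashed lines mark the fold minimum of 1 in either direction. PPIA and TBP stay above 0 and HPRT1 below 0 under all 5, while EEF1A1 and POLR2A lie below 0 with 3 of them and above 0 without rescaling and without gene length. The setting without gene length is per library total, so it is not rescaled to the shared genes either.

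Within a species the 6 genes varied little. The coefficient of variation (CV, the SD as a percent of the mean over 3 libraries) of the rescaled FPKM was lowest for PPIA in pika, at 0.131%, where 0.0580% of tested genes had a lower one. In pika it was 0.989% for POLR2A, 1.13% for HPRT1, 1.18% for EEF1A1, 1.27% for YWHAZ and 2.80% for TBP, beside a median of 5.96% over all tested genes. In mouse it was 2.05% for EEF1A1, 2.29% for POLR2A, 2.75% for YWHAZ, 4.18% for PPIA, 4.33% for HPRT1 and 10.5% for TBP, beside a median of 7.80%. TBP in mouse was the only case in which a member varied more than the median gene, and 63.1% of tested genes had a lower CV there. The CV was lower in pika for 6 of 6 genes, and this difference was not tested. Of the mouse libraries, replicate 1 had the highest value of 4 of the 6 genes and the lowest value of HPRT1.

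These values can be set beside the spread that counting reads gives by itself, from the number of reads of each gene. For TBP in mouse, with 165, 88 and 118 reads, counting alone gives 9.29%, close to the 10.5% observed. For HPRT1 it gives 8.70% in pika and 5.79% in mouse, more than observed in either species. For PPIA it gives 0.835% in pika, more than the 0.131% observed, and 2.38% in mouse, less than the 4.18% observed. For EEF1A1, with 73869 reads over the mouse libraries and 159685 over the pika libraries, it gives 0.649% and 0.434%, less than the 2.05% and 1.18% observed. The observed CV was below the counting value for 4 of 6 genes in pika and 2 of 6 in mouse. With 3 libraries a CV is itself imprecise, so the order of the genes is a description.

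**Figure D3:**
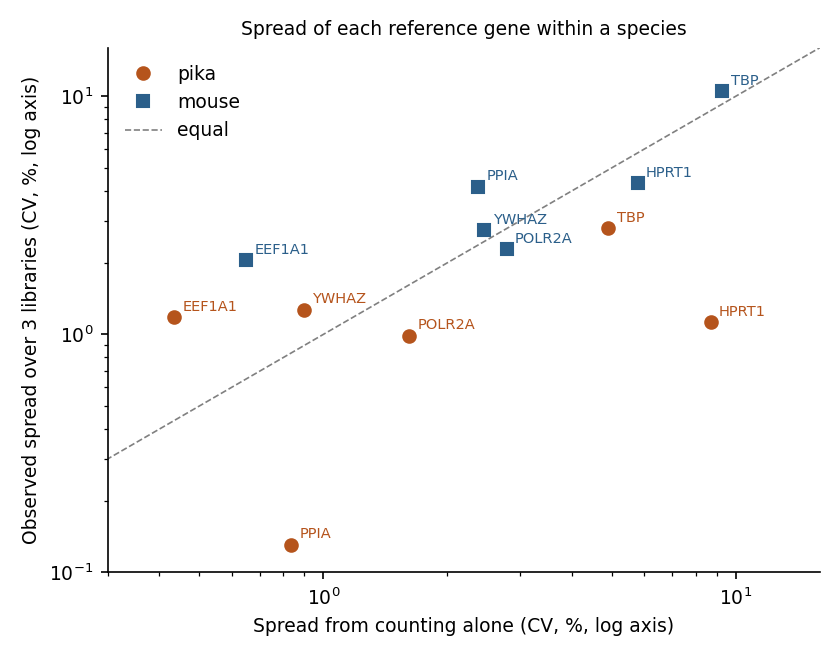
Observed CV of each reference gene over 3 libraries of a species against the CV that counting reads alone gives, both in percent on log axes; the dashed line marks equal values. Points for pika lie lower than those for mouse for each gene, and TBP in mouse has both the highest observed CV, 10.5%, and the highest counting CV, 9.29%.

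The ratio of 2 genes within a library does not depend on the library total, so the 15 pairs of members were compared free of any rescaling. Ratios of deposited FPKM were nearly constant within a species, with the SD of a log2 ratio at most 0.057 in pika and 0.20 in mouse. Between species they moved by 0.19 to 6.21 on the log2 scale, with a median of 2.78, and 13 of 15 pairs moved by at least 1. No pair had overlapping groups. The exact two-sided permutation test over 3 against 3 libraries gave p = 0.10 for each pair, the smallest value this design allows, and an adjusted p of 0.10 over the 15 pairs.

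EEF1A1 and POLR2A kept the closest ratio. EEF1A1 was at 59.6 times the FPKM of POLR2A in pika and 52.1 times in mouse, a difference of 0.19 on the log2 scale, or 1.14-fold. PPIA and TBP had the next closest ratio, 75.6 in pika and 57.8 in mouse, a 1.31-fold difference that was 2.29-fold without gene length. The widest gap was that between PPIA and HPRT1. PPIA was at 162.3 times the FPKM of HPRT1 in pika and at 2.20 times in mouse, a 73.9-fold difference. TBP was at 2.15 times the FPKM of HPRT1 in pika, and HPRT1 was at 26.3 times that of TBP in mouse, so this pair changed order.

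Gene length bore on these ratios. Without division by length 11 of 15 pairs still moved by at least 1, and PPIA and HPRT1 remained the widest pair, at 18.2-fold. The PPIA to YWHAZ ratio moved least, by 1.08-fold, where it had moved 4.23-fold on FPKM. The pairs EEF1A1 with POLR2A and TBP with YWHAZ changed the sign of their difference. Read totals that are not divided by length depend on how much of each transcript the gene model covers.

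**Figure D4:**
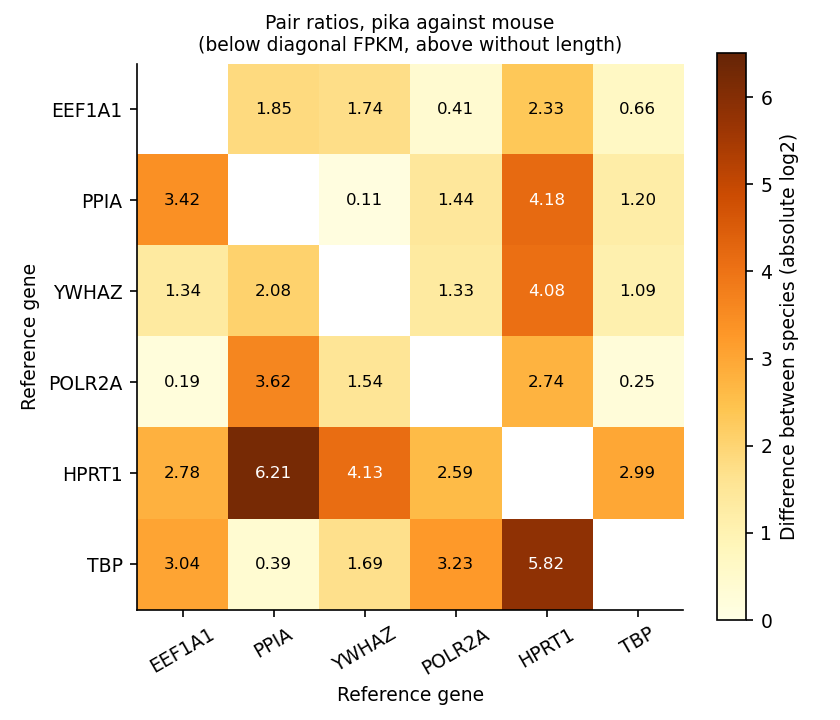
Absolute difference between pika and mouse in the log2 ratio of each pair of reference genes, from deposited FPKM below the diagonal and from reads without division by gene length above it; darker squares mark larger differences. PPIA with HPRT1 differs most on both sides, by 6.21 and 4.18, and the least different pair is EEF1A1 with POLR2A (0.19) below and PPIA with YWHAZ (0.11) above.

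A common summary of such ratios is the stability measure M. It is the mean SD of the log2 ratio of a gene to each of the other 5. A low value means that a gene kept its ratio to the others of this set. Over both species M is low for genes whose fold change lies in the middle of the 6, which need not be the least changed. Within pika M lay between 0.022 for PPIA and 0.042 for TBP, and within mouse between 0.057 for POLR2A and 0.13 for TBP. Over the 6 libraries of both species it was 1.18 for EEF1A1, 1.18 for YWHAZ, 1.22 for POLR2A, 1.56 for TBP, 1.72 for PPIA and 2.36 for HPRT1. PPIA, with the lowest M within pika, had the highest M but that of HPRT1 over both species. EEF1A1 and YWHAZ did not differ in M to 2 decimals. Without gene length the values were lower, from 0.68 for POLR2A and 0.69 for TBP to 1.79 for HPRT1.

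Scaling every library to a single member carries that member's own difference over to all other genes. The medians below thus move by about its log2 fold change with the sign reversed, and add no separate evidence. With all libraries divided by PPIA, 8996 of 10349 tested genes were called lower in pika and 220 higher (89.1% called), with a median log2 fold change of -2.79 among tested genes. With TBP 8545 were lower and 325 higher (85.7% called, median -2.42). With HPRT1 the picture turned around, with 8882 genes higher and 681 lower (92.4% called, median 3.10). YWHAZ gave 1248 higher and 4653 lower (57% called, median -0.80). EEF1A1 gave 3704 and 2034 (55.4%, 0.48), and POLR2A gave 4234 and 1817 (58.5%, 0.67). The geometric mean of the 6 genes, which averages over their opposite differences, gave 1938 higher and 3352 lower (51.1% called, median -0.28). Scaling to the sum of the shared genes gave 2971 and 2433 (0.21), median-of-ratios scaling 2590 and 2709 (51.2%, 0.04), and the deposited values without rescaling 6029 and 1107 (69%, 1.28). Higher calls thus made up 55.0% of calls on the shared-gene scale, 48.9% with median-of-ratios scaling, 36.6% with the geometric mean and 84.5% without rescaling. Of the 6 single genes, EEF1A1 gave the median nearest to that of the shared-gene scale. This follows from its fold change, the smallest of the 6 on that scale.

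**Figure D5:**
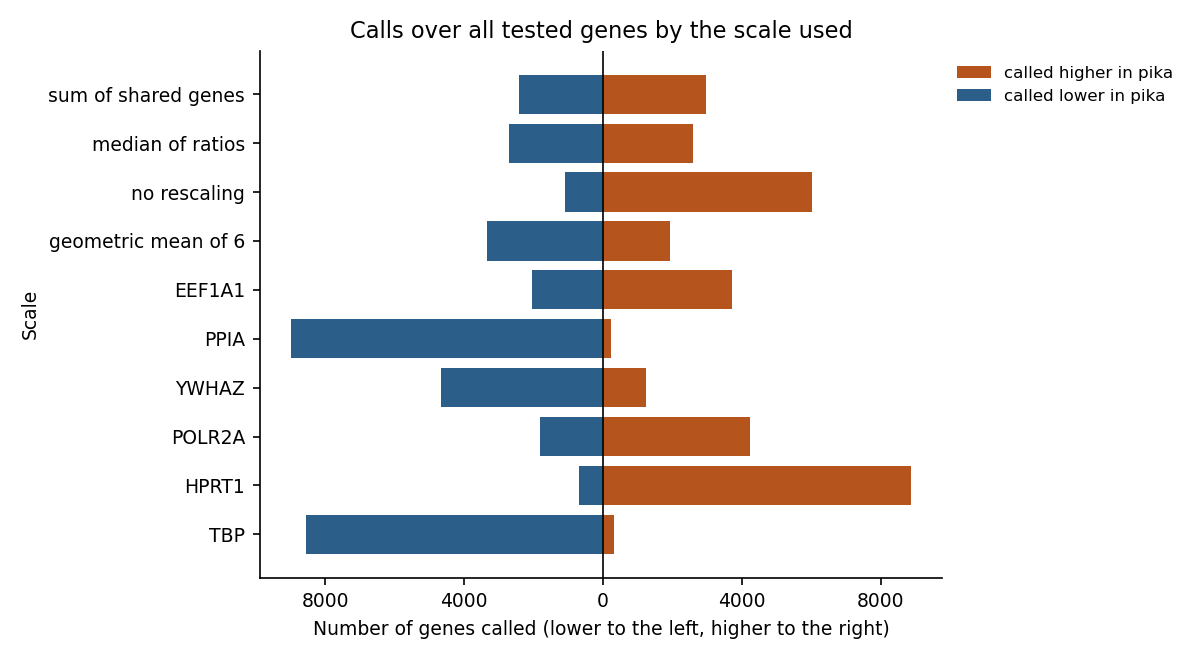
Number of the 10349 tested genes called higher (right) or lower (left) in pika when libraries are scaled in 10 ways, by the sum of shared genes, median of ratios, no rescaling, the geometric mean of the 6 reference genes or 1 reference gene. Scaling to PPIA or TBP puts 8996 and 8545 genes on the lower side, and scaling to HPRT1 puts 8882 on the higher side.

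Other genes in common use as references were read from a list of 50, of which 41 were shared and tested. Of these 13 were called higher in pika, 4 lower and 24 were not called, where 28.7% of all tested genes were called higher and 23.5% lower. The median log2 fold change of the list was 0.47, beside 0.21 for all tested genes. GAPDH, the glycolytic dehydrogenase, had a level of 2893 ± 43.2 in pika against 1223 ± 45.1 in mouse (SD over 3 libraries, as below). Its log2 fold change was 1.24, and it stayed called without rescaling, without gene length (1.01) and with median-of-ratios scaling (1.06). ACTB, cytoplasmic beta-actin, was at 4416 ± 121.6 and 8227 ± 291.3 and was not called (-0.90), was called lower with median-of-ratios scaling (-1.07) and had the opposite sign without rescaling (0.40). B2M, the light chain of MHC class I, was called lower (-1.33) on the shared-gene scale, but not without rescaling (-0.03) or without gene length, where the sign turned (0.01). TOP1, a DNA topoisomerase (2.16), and TFRC, the transferrin receptor (1.901), were called higher under all 4 of these settings. RPS29, a ribosomal protein gene, was lowest, at 15.6 ± 3.15 in pika against 940.4 ± 46.6 in mouse (-5.84). Ribosomal protein genes have many processed copies as well, and RPS29 rested on 52 reads over the pika libraries.

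Among these 41 genes, 5 were not called on the shared-gene scale, without rescaling, with median-of-ratios scaling or without gene length. They were ALAS1, which starts haem synthesis, CANX, a chaperone of the endoplasmic reticulum, PSMC4, a proteasome subunit, HSP90AB1, a cytosolic chaperone, and VCP, an ATPase that extracts ubiquitinated proteins. Of the 6 members only POLR2A shared this property, with log2 fold changes of -0.48, 0.80, -0.65 and 0.74. Of 10154 genes with recovered reads 12% did so, beside 12.2% of the list.

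Relatives and partners of each member were then read from lists of genes of the same family, complex or pathway, to see whether they moved in the member's direction. Of all tested genes 28.7% were called higher and 23.5% lower, with a median of 0.21, and no list was tested against these values. Of 15 tested cyclophilins other than PPIA, 7 were called higher in pika, 1 lower and 7 not called, with a median of 0.95. PPID, a cochaperone of HSP90, had 350.3 ± 12.0 in pika against 53.9 ± 5.18 in mouse, a log2 fold change of 2.68, and the mitochondrial PPIF (2.26) and the nuclear PPIG (1.86) and PPIE (1.53) were also higher. PPIB, the abundant cyclophilin of the secretory pathway, was at 751.9 ± 21.9 and 317.9 ± 19.0 (1.24), with 0.69 and no call without gene length. PPIC was called lower (-1.20), was not called without gene length (-0.08) and had the opposite sign without rescaling (0.09).

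Of 6 tested 14-3-3 genes other than YWHAZ, calls were made higher in pika for 2, lower for 1 and neither way for 3. Their median was 0.28, beside 0.21 for all tested genes, of which 28.7% were called higher and 23.5% lower. YWHAH was at 552.0 ± 19.6 in pika against 175.7 ± 5.71 in mouse (1.65; 0.73 and not called without gene length), and YWHAQ was also higher (1.20). YWHAE, the most abundant, was at 1383 ± 27.0 and 941.1 ± 18.4 (0.55, not called). Its recovered length was 428 bases in mouse against 1759 in pika, and without gene length it stood at 3.87. A recovered length is the smallest that fits, and it and its reads may be a fraction of the true ones. The value of 3.87 is therefore uncertain. YWHAB was at 453.6 ± 9.72 and 452.1 ± 9.28 (0.0048, not called; 1.29 without rescaling). SFN, the epithelial 14-3-3 gene, was called lower (-2.51), on 3 recovered pika reads, a number that may likewise be a fraction of the true one. 14-3-3 genes and the pair EEF1A1 and EEF1A2 are similar in sequence, and reads can be split between such members.

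Of 12 tested translation factors, 2 were called higher, none lower and 10 not called. Their median was 0.17, beside 0.21 for all tested genes, of which 28.7% were called higher and 23.5% lower. EIF5A, which helps the ribosome past proline stretches, was at 1877 ± 43.4 in pika against 777.1 ± 34.5 in mouse (1.27), and the mitochondrial TSFM (1.27) was the other call. EEF2, the translocase, was at 1664 ± 30.8 and 3144 ± 7.53 (-0.92, not called), was called lower with median-of-ratios scaling (-1.09) and had the opposite sign without rescaling (0.38) and without gene length (0.29). EEF1A2, the form of muscle and neurons, named after its value was seen, was at 11.9 ± 1.74 and 18.2 ± 1.70 and was not called (-0.57), and it had the opposite sign without rescaling (0.55) and without gene length (0.12).

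Subunits of RNA polymerase II beside POLR2A were called higher in 3 of 12, lower in none and not called in 9. Their median was 0.15, beside 0.21 for all tested genes, of which 28.7% were called higher and 23.5% lower. POLR2E, which is shared by all 3 nuclear polymerases, was at 255.5 ± 7.77 in pika against 55.6 ± 5.46 in mouse (2.19), and POLR2I (1.77) and POLR2C (1.15) were also higher, though POLR2C lost its call with median-of-ratios scaling (0.98). POLR2B, the second-largest subunit and the partner of POLR2A in the catalytic core, named after its value was seen, was at 95.5 ± 1.33 and 120.0 ± 1.95 (-0.33, not called). Its sign was opposite without rescaling (0.94) and without gene length (0.58), as it was for POLR2A. Ratios between subunits of the complex thus differed between the tables.

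Of 20 tested genes of TFIID, the complex that TBP nucleates, and of TBP relatives and cofactors, 8 were called higher, 1 lower and 11 not called. Their median was 0.83, beside 0.21 for all tested genes, of which 28.7% were called higher and 23.5% lower. TAF7 was at 110.9 ± 8.80 in pika against 12.7 ± 4.41 in mouse (3.07), and GTF2A2 (2.16), TAF12 (2.10) and GTF2B (2.01), the last encoding TFIIB, were higher too. Without gene length GTF2A2 was at 0.88 and lost its call. TAF10, the highest of the list in mouse but not in pika, was at 89.7 ± 4.11 and 254.3 ± 13.003 (-1.49), with -0.20 and no call without rescaling. TAF15 was not called (0.53; 1.78 without rescaling and 1.41 without gene length).

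Genes of purine metabolism beside HPRT1 were split. Of 17 tested, 6 were called higher in pika, 5 lower and 6 not called. Their median was 0.27, beside 0.21 for all tested genes, of which 28.7% were called higher and 23.5% lower. XDH, which degrades hypoxanthine and xanthine to uric acid, was at 0.504 ± 0.113 in pika against 246.5 ± 3.71 in mouse (-7.36), and GDA, guanine deaminase, was at 1.19 ± 0.0555 and 51.1 ± 1.59 (-4.57). Both rested on few pika reads, 23 and 22 over 3 libraries. ADSL (2.57) and IMPDH2 (1.77), of purine synthesis, and DCK (2.30), which salvages deoxynucleosides, were higher, and ADSL lost its call without gene length (0.94). The salvage enzyme ADK was at 85.0 ± 3.66 and 300.7 ± 5.66 (-1.81), but was not called without rescaling (-0.52) or without gene length (-0.38). APRT, the enzyme that salvages adenine and was named after its value was seen, was called lower (-1.35), as it was without gene length (-1.58), but not without rescaling (-0.07).

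For each member, the genes whose ratio to it was most constant were found among 3195 tested genes with a mean of at least 10 FPKM in both species. The measure was the SD over 6 libraries of the log2 ratio of deposited FPKM. POLR2A was followed most closely by MYH9, non-muscle myosin (SD 0.017), TUBB6 (0.024) and PKM (0.026), and EEF1A1 by VIM, PAM and RPL13A (0.027, 0.027 and 0.029). YWHAZ was followed by SLC25A37 (0.018), NUCB1 (0.023) and UBE2N (0.025). PPIA was followed less closely, by DEK (0.042), PDAP1 (0.056) and HMGN2 (0.11). LDHB (0.054), GRB10 (0.077) and NACA (0.10) were nearest to TBP, and IER3 (0.054), MDM2 (0.058) and MFSD1 (0.063) to HPRT1. With 6 libraries in 2 groups this likeness rests mostly on the size of the difference between the species, and it describes these tables only.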

How the data were processed

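The authors deposited 1 FPKM value per gene and library, per the file headers. CASAVA 1.9, STAR 2.6.1a, featureCounts and edgeR 3.28.1 and the build GRCm38 are listed without order or role in the submitters' processing notes, and the annotation used is not named there. Species, annotation and gene length cannot be told apart in this design.

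Mouse identifiers were named with a gene table (49326 of 49585 rows) and joined to pika symbols. Each library was rescaled so that the 14419 shared genes summed to 1000000. Genes with a mean of at least 1 FPKM in a species were tested on log2(value + 1) with limma-trend from limma 3.58.1 under R 4.3.3, which understates the change of low genes, with two-sided tests and Benjamini-Hochberg adjustment over all 10349. Whole reads, lengths and library totals were recovered from the FPKM steps with a tolerance of 0.002 reads, for 12190 shared genes in both species. A recovered read number and its length may both be a fraction of the true ones. Scripts were tested on simulated data. Replicates were not copies of each other, with a mean chi-square per gene of 1.19 to 1.53 for pairs of libraries. Counting reads alone gives a value near 1, so this does not show separate animals or cultures. Named genes were the 6 members, other reference genes, up to 4 called genes with the largest change and 2 of the highest level per partner list, and the 3 most similar genes per member. The values of 1 other reference gene are not reported here. The members and lists were chosen with earlier results of these data known. Python 3.11.15, numpy 2.4.6, pandas 2.3.3, scipy 1.17.1 and matplotlib 3.10.9 were used.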

Additional observations from a re-analysis of the deposited data

How the results depend on the processing

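PPIA, TBP and HPRT1 kept their direction under the other pseudocounts, filters, scales (no rescaling, median of ratios, geometric mean), fits and read-based values, and leaving out each library in turn changed no call of the 6 genes (3.12 to 3.17 for PPIA, 1.04 to 1.08 for YWHAZ). TBP lost its call without gene length (0.96) and with voom on recovered reads (0.97), and YWHAZ with median-of-ratios scaling (0.88) and with the geometric mean of the 6 genes as the scale (0.54). EEF1A1 and POLR2A changed sign without rescaling (1.01 and 0.80), without gene length (0.33 and 0.74) and with voom (0.33 and 0.74). On recovered reads scaled to the shared genes, an alternative chosen after seeing the data, EEF1A1 was at 0.077, POLR2A at 0.49 and TBP at 0.72 without a call. Scaled to PPIA alone, TBP was at -0.37. Without rescaling the counts over all genes were 6029 higher and 1107 lower; with the geometric mean 1938 were higher, and with a filter at 5 FPKM 1584 were lower, where fewer genes were tested. Among the 6 members 4 were called higher without rescaling. With median-of-ratios scaling, with the geometric mean, without gene length and with voom 2 were called higher. Each of these settings had 1 lower. The shares called over all tested genes were 69% without rescaling, 51.2% with median-of-ratios scaling, 51.1% with the geometric mean and 53.9% without gene length. With voom 5724 of 10154 genes were called. M over 6 libraries was, without gene length, 0.97 for PPIA, 0.69 for TBP, 1.79 for HPRT1, 0.92 for YWHAZ, 0.77 for EEF1A1 and 0.68 for POLR2A. The SD of log2 PPIA within pika was 0.0019, 0.0051 without rescaling and 0.0065 with median-of-ratios scaling. Without rescaling 27 other reference genes were called higher and 1 lower, and 13 and 0 cyclophilins. The counts were 17 and 0 for TFIID genes and 11 and 2 for purine genes. Called higher there were also 4 14-3-3 genes, 8 translation factors and 8 polymerase subunits. On that scale 69% of all tested genes were called, with a median of 1.28. With median-of-ratios scaling 7 other reference genes, 2 translation factors and 1 polymerase subunit were lower. The causes were not tested. The block on replicate number gave 2973 genes higher and 2433 lower. Deviations of same-numbered libraries correlated at -0.0091, 0.048 and 0.0093. These values gave no sign that the numbers pair the libraries, but a pairing of little effect would look the same. TMM scaling was not run, since edgeR was not applied to FPKM.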
